A study of Homo sapiens with 6 samples.

Results

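The genes described here were 10 components of IL6 family signaling in DU145 cells, an androgen-independent line of human prostate cancer derived from a metastasis to the brain. They were the cytokines IL6, IL11 and LIF, the receptor chains IL6R, IL6ST, LIFR and OSMR, the kinase JAK1, the transcription factor STAT3 and the feedback inhibitor SOCS3. They were found by gene symbol, and all 10 were listed among the 23062 identifiers of each library. RNA was sequenced from wild-type DU145 cells kept in MEM medium for 48 h (control, 3 libraries) and from the same cells given taraxasterol (TAX), a plant triterpene, at its IC50 dose for 48 h (TAX, 3 libraries). TAX had been dissolved in DMSO, and the sources used here do not say whether the control cells also received DMSO, so the effects of solvent and TAX cannot be told apart. The labels do not say whether libraries of a group came from separate cultures, so errors describe the spread between these libraries, which may be technical. The 10 genes were picked with the TAX and control levels of these same libraries already known. Their differences between the groups are therefore given as values with their errors, and nothing is read from whether a gene of the 10 passed the test across all genes.

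Cytokines of the IL6 family bind a private receptor chain and then the shared signal transducer gp130, the product of IL6ST. IL6 and IL11 signal through pairs of gp130, while LIF joins gp130 to LIFR and oncostatin M joins it to OSMR. The receptors carry JAK kinases, which phosphorylate STAT3, and STAT3 then enters the nucleus and switches on target genes, among them SOCS3, which blocks the kinase and closes the loop. DU145 cells are known for making their own IL6 and for keeping STAT3 active.

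The 10 genes lie on 6 chromosomes (GENCODE 29, GRCh38). LIFR (ENSG00000113594.9, minus strand) and OSMR (ENSG00000145623.12, plus strand) lie near each other on the short arm of chromosome 5, from 38474963 to 38608354 and from 38845858 to 38945596, and IL6ST (ENSG00000134352.19, minus strand) lies on the long arm from 55935095 to 55994993. IL6 (ENSG00000136244.11, plus strand) lies on chromosome 7 from 22725884 to 22732002, IL11 (ENSG00000095752.6, minus strand) on chromosome 19 from 55364389 to 55370463 and LIF (ENSG00000128342.4, minus strand) on chromosome 22 from 30240447 to 30246851. JAK1 (ENSG00000162434.11, minus strand) and IL6R (ENSG00000160712.12, plus strand) lie on chromosome 1, from 64833229 to 64966504 and from 154405193 to 154469450. STAT3 (ENSG00000168610.14) and SOCS3 (ENSG00000184557.4) lie on the minus strand of chromosome 17, from 42313324 to 42388568 and from 78356778 to 78360077.

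Promoter sequence from RefSeq (GRCh38.p14) was at hand for 9 of the 10 genes and not for LIF. The IL6 and IL11 sequences are shown because these genes had the lowest and the highest log2 fold change of the 10 in the results that follow. They hold the bases before the start of transcription on the coding strand, without annotated exons, with motif letters in capitals. The IL6 stretch is chr7:22726950-22727146 on the plus strand, inside an intron of a longer IL6 transcript, and the IL11 stretch is chr19:55370464-55370713 on the minus strand.
IL6: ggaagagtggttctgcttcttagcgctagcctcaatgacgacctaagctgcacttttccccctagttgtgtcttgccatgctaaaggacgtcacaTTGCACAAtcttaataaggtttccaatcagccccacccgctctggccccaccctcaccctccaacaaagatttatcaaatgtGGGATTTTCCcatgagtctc
IL11: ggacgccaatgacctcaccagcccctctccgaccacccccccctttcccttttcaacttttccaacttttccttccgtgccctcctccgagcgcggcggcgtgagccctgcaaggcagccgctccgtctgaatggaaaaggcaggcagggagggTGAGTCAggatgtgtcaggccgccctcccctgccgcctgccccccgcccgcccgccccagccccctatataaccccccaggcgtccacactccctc
The capitals in IL6 mark a match to TTGCNNAA, the motif of C/EBP factors, and a match to the motif of NF-kB (GGG, any 2 bases, TTTCC), 155 and 73 bases before the start site in RefSeq. The capitals in IL11 mark a match to TGANTCA, the motif of AP-1, 96 bases before the start site. Both strands were searched in the 250 bases before each of 35116 start sites. Of these sites, 1.73% held the NF-kB motif, 9.05% the C/EBP motif, 6.57% the AP-1 motif and 6.57% TTCNNNGAA, the motif of STAT factors. These shares are per start site, and the 9 genes had 14 start sites, so shares and genes are counted in unlike units. Of the 14 sites, 1 held the NF-kB motif, 3 the C/EBP motif, 1 the AP-1 motif and 2 the STAT motif. Among the 9 genes the NF-kB motif was found in IL6 alone, the AP-1 motif in IL11 alone and the STAT motif in LIFR alone. The C/EBP motif was found in IL6, LIFR and OSMR. For SOCS3 the stretches searched were chr17:78360926-78361175 and chr17:78359668-78359917. The bases just before the GENCODE start of SOCS3 at 78360077 lie in neither stretch, so they were not searched. A match of letters is a description of the sequence and not a measured site.

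The deposited values were taken as FPKM, a level per length in which sequenced fragments are scaled to transcript length and library size. Their sum ran from 322483 to 363724 per library, and the number of reads is unknown. Control replicate 3 had the lowest sum, and its median over the tested genes was 8.74 FPKM, against 9.84 to 9.99 FPKM in the other libraries. Epithelial markers KRT8, KRT18, KRT19, EPCAM and CDH1 had from 40.7 to 173 FPKM. They summed to 428 to 545 FPKM in control and 555 to 606 FPKM in TAX libraries, without overlap. Taken singly, KRT18, KRT19 and EPCAM had higher TAX values without overlap, while KRT8 and CDH1 overlapped between the groups. CDH1 had 40.7 to 66.8 FPKM in control and 42.8 to 50.8 FPKM in TAX libraries. The 5 leukocyte markers summed to 20.4 to 26.9 FPKM in control and 32.8 to 33.9 FPKM in TAX libraries. Nearly all of it was CD68, a lysosomal protein also made outside leukocytes, while PTPRC and CD3E, which define leukocytes, had at most 0.00692 FPKM. The 4 fibroblast markers summed to 1.89 to 2.08 FPKM in control and 1.42 to 1.48 FPKM in TAX libraries, with COL1A2, DCN and LUM listed at 0, and the 3 endothelial markers to at most 0.0368 FPKM. The part of these differences in the results was not tested.

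In control cells the 10 genes covered a wide span of levels per length. OSMR, the receptor chain for oncostatin M, was highest with 265 ± 35.7 FPKM (SD, n = 3) and ranked 138 among the 12359 tested genes by control mean. STAT3 followed with 67.2 ± 12.0 FPKM, IL6ST with 41.6 ± 4.26 FPKM, LIF with 38.8 ± 6.05 FPKM and JAK1 with 27.2 ± 2.94 FPKM (SD, n = 3 each). IL11, LIFR, IL6R, SOCS3 and IL6 formed the lower end, from 12.2 ± 0.722 FPKM for IL11 to 6.78 ± 0.978 FPKM for IL6. For 7 of the 9 pairs of neighbours in this order the control ranges did not overlap, and they did for IL6ST with LIF and for SOCS3 with IL6. OSMR thus stood above IL6ST, its partner chain, while LIFR, with 10.0 ± 0.267 FPKM, stood below it. In 9 of the 10 genes control replicate 3 held the lowest control value, SOCS3 being the exception.

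**Figure D1:**
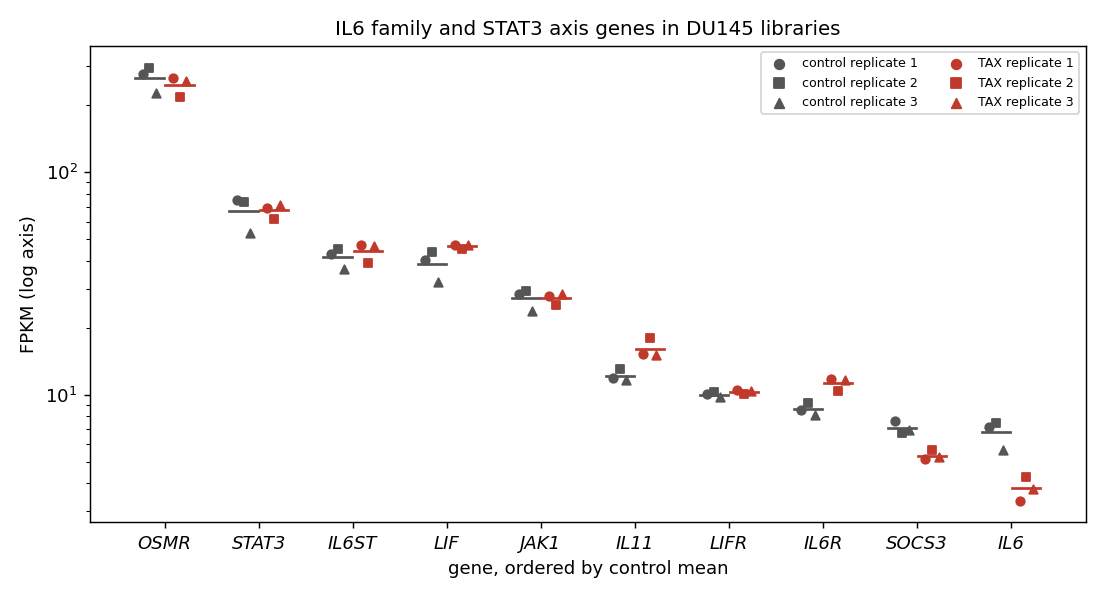
FPKM (log axis) of the 10 genes in 3 control and 3 TAX libraries, ordered by control mean, with 1 symbol per library and a line at each group mean. OSMR stands highest at 217 to 295 FPKM, and the IL6 and SOCS3 symbols of the TAX libraries lie below all control symbols.

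Among the cytokines, IL6 was lower and IL11 and LIF were higher in TAX-treated cells. IL6, which drives growth and acute-phase responses, had 7.20, 7.49 and 5.67 FPKM in the control libraries (replicates 1, 2 and 3, as in all values that follow) and 3.35, 4.27 and 3.78 FPKM in the TAX libraries. Every TAX library lay below every control library. The mean went from 6.78 ± 0.978 to 3.80 ± 0.460 FPKM (SD, n = 3 each), which is a ratio of 0.560, and the log2 fold change on the log2(FPKM + 1) scale was -0.69 (standard error 0.11). In bulk RNA, fewer cells that make IL6 and less IL6 RNA per cell cannot be told apart. The antisense gene AC073072.1 shares 428 of the 2069 exonic bases of IL6 and STEAP1B, on the opposite strand, shares 46. The use of strand in counting is not given in the sources used here, so reads of IL6 and these genes cannot be told apart, and STEAP1B itself had 1.19 to 2.02 FPKM.

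IL11, a cytokine of tissue remodelling and fibrosis, had 11.9, 13.0 and 11.7 FPKM in control and 15.2, 18.1 and 15.1 FPKM in TAX libraries. The groups did not overlap, and the TAX mean of 16.1 ± 1.69 FPKM was 1.32 times the control mean of 12.2 ± 0.722 FPKM (SD, n = 3 each). This was a log2 fold change of 0.37 (standard error 0.091). LIF, the leukemia inhibitory factor, was the most abundant of the cytokines, with 40.5, 43.8 and 32.1 FPKM in control and 47.2, 45.1 and 46.9 FPKM in TAX replicates. Its groups did not overlap either, but the gap between control replicate 2 and TAX replicate 2 was small beside the control SD of 6.05 FPKM. The log2 fold change of LIF was 0.26 (standard error 0.11), and it was 0.14 without control replicate 3.

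Of the receptor chains, IL6R was higher in TAX-treated cells, while the shared and the private partner chains overlapped between the groups. IL6R, the chain that binds IL6, had 8.56, 9.19 and 8.08 FPKM in control and 11.8, 10.5 and 11.7 FPKM in TAX libraries. All TAX values lay above all control values, and the log2 fold change was 0.36 (standard error 0.084), opposite in sign to that of its ligand. IL6ST, the gene of gp130, had 42.8, 45.2 and 36.9 FPKM in control and 46.9, 38.9 and 46.6 FPKM in TAX replicates, at a log2 fold change of 0.082 (standard error 0.10). LIFR had 10.0, 10.3 and 9.75 FPKM in control and 10.5, 10.1 and 10.4 FPKM in TAX replicates, the narrowest control spread of the 10 genes at a coefficient of variation of 2.66%. Its log2 fold change was 0.041 (standard error 0.074). OSMR had 275, 295 and 226 FPKM in control and 264, 217 and 257 FPKM in TAX replicates, at a log2 fold change of -0.10 (standard error 0.12). When 1 library was left out the log2 fold change of OSMR ranged from -0.21 (without control replicate 3) to -0.015 (without TAX replicate 2), and it was -0.18 after quantile normalization and -0.16 after median centring. For IL6ST, LIFR and OSMR the libraries of the groups were interleaved. Genes on the opposite strand share 797 of the 9292 exonic bases of IL6ST (AC008914.1), 629 of the 11864 of LIFR (LIFR-AS1) and 229 of the 7174 of OSMR (RICTOR, 12.8 to 16.1 FPKM).

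Inside the cell, JAK1 and STAT3 had nearly the same mean in both groups, and SOCS3 was lower with TAX. JAK1, the kinase that gp130 relies on most, had 28.3, 29.4 and 23.8 FPKM in control and 27.8, 25.3 and 28.3 FPKM in TAX libraries. The TAX mean was 0.998 times the control mean. STAT3 had 75.0, 73.1 and 53.4 FPKM in control and 68.9, 61.6 and 71.3 FPKM in TAX replicates, with a ratio of means of 1.00 and a log2 fold change of 0.016 (standard error 0.13). Its control replicates 1 and 2 lay above every TAX library and control replicate 3 below, so that the log2 fold change was -0.14 without control replicate 3. These are levels of RNA, and the phosphorylation of STAT3 was not measured here. SOCS3, a direct target of STAT3 that binds gp130 and JAK1 and stops the signal, had 7.62, 6.75 and 6.92 FPKM in control and 5.13, 5.65 and 5.24 FPKM in TAX replicates. The groups did not overlap, and the mean went from 7.10 ± 0.464 to 5.34 ± 0.277 FPKM (SD, n = 3 each) at a log2 fold change of -0.35 (standard error 0.082).

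Of the 10 genes, 5 did not overlap between the groups, IL11, LIF and IL6R with higher and IL6 and SOCS3 with lower values in TAX libraries. All 10 passed the filter on low values, and over all 12359 tested genes 17.9% did not overlap, 14.6% with higher and 3.34% with lower TAX values. At an adjusted p under 0.05 (limma, Benjamini-Hochberg adjustment over all tested genes) 1 of the 10 genes was called, IL6, where 0.477% of all genes were called, 0.316% higher and 0.162% lower. The genes were chosen on this contrast, so nothing is read from these counts. Over all genes 39 were called higher and 20 lower, and after quantile normalization 47 and 48. The median log2 fold change of the 10 genes was 0.029, beside 0.054 for all tested genes. The call of IL6 was held in 8 of 14 alternative settings and lost when any library except control replicate 3 was left out, as well as with no filter on low values, while its log2 fold change stayed between -0.82 and -0.63 in all 14. SOCS3, IL11, IL6R, LIF and OSMR also kept their sign in all 14. The signs of LIFR, JAK1 and STAT3 flipped under quantile normalization and median centring. Those of JAK1 and STAT3 also flipped after rescaling to one sum and without TAX replicate 1 or 3. Without control replicate 3 the signs of IL6ST, JAK1 and STAT3 were negative, with -0.00040 for IL6ST.

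**Figure D2:**
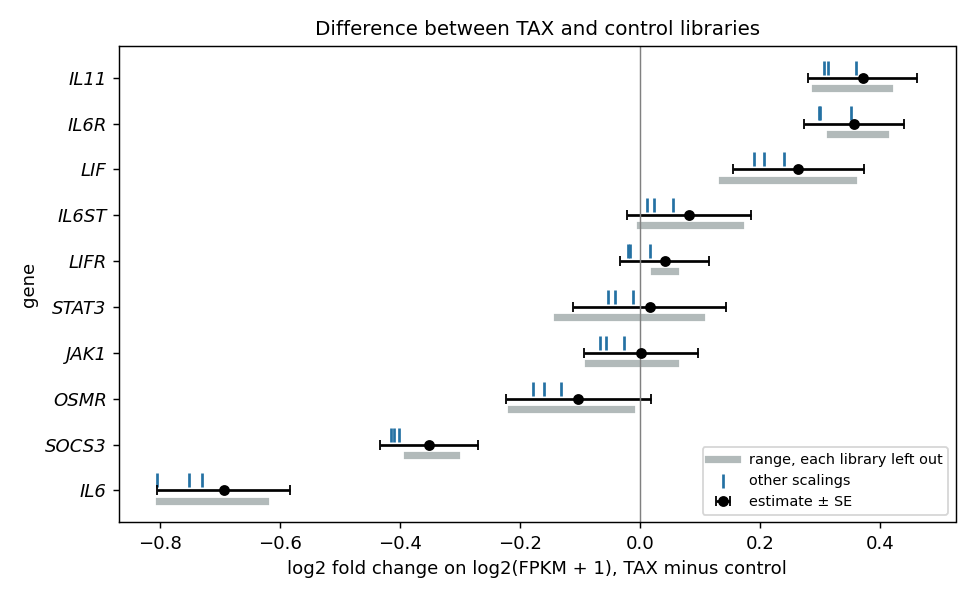
Log2 fold change on the log2(FPKM + 1) scale, TAX minus control, for each of the 10 genes, with points and bars for the estimate and its standard error, grey bands for the range when each library is left out and blue ticks for 3 other scalings. IL6 at -0.69 and SOCS3 at -0.35 lie to the left of 0 and LIF, IL6R and IL11 from 0.26 to 0.37 to the right, while the other genes reach across 0.

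Ratios between genes of one library do not depend on a constant factor for that library, and they set the unequal changes side by side. The ratio of IL11 to IL6 was 1.66, 1.74 and 2.06 in control and 4.53, 4.23 and 3.99 in TAX libraries. The TAX mean was 2.34 times the control mean, and no TAX library came near the control range. LIF over IL6 went from 5.71 ± 0.122 in control to 12.4 ± 1.76 in TAX libraries (SD, n = 3 each). IL6 over its receptor IL6R went from 0.786 ± 0.0741 to 0.339 ± 0.0637, and IL6R over IL6ST went from 0.207 ± 0.0101 to 0.257 ± 0.0100 (SD, n = 3 each). The means of the cytokine and of its receptor chain thus differed between the groups in opposite directions. SOCS3 over STAT3 was 0.102, 0.0923 and 0.130 in control and 0.0745, 0.0917 and 0.0734 in TAX replicates, where control replicate 2 and TAX replicate 2 nearly touched. OSMR over IL6ST was 6.35 ± 0.216 and 5.58 ± 0.0574 (SD, n = 3 each) without overlap, a difference that the level of OSMR alone did not show, while OSMR over LIFR overlapped.

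**Figure D3:**
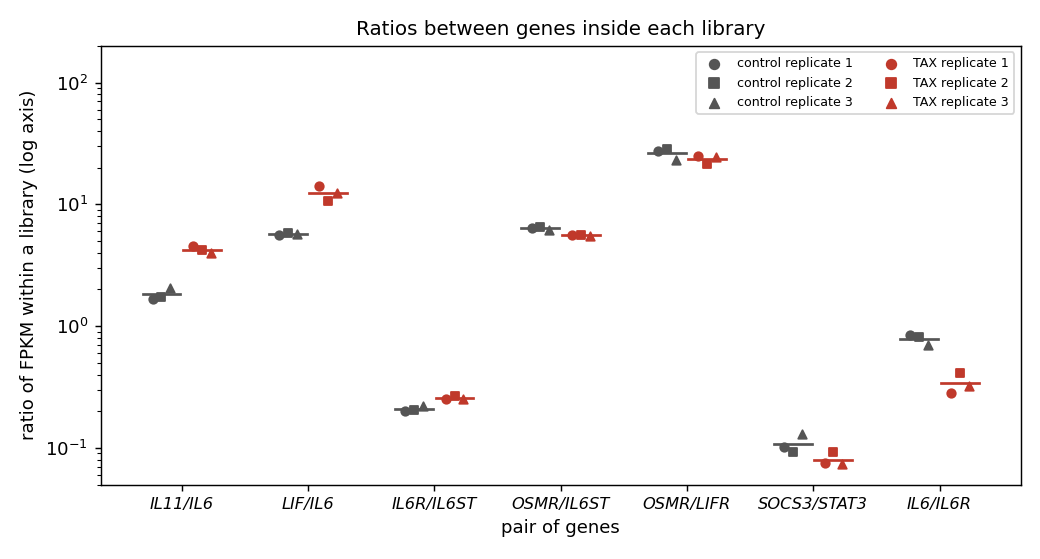
Ratio of the FPKM of 2 genes within each library (log axis) for 7 pairs of genes, with 1 symbol per library and a line at each group mean. IL11/IL6 and LIF/IL6 of the TAX libraries lie above all control libraries and IL6/IL6R below them, and OSMR/LIFR overlaps.

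The spread between libraries of a group was also compared between the genes. After removal of the group means, the 10 pairs among IL6ST, LIFR, OSMR, JAK1 and STAT3 had a Pearson's r of 0.85 to 0.99 over the 6 libraries, which share their scaling. SOCS3 had r of -0.44 to 0.073 with the same 5 genes and IL6 0.19 to 0.57. With each library centred on its median the 10 pairs ranged from -0.68 to 0.97 with a median of 0.76, against 0.96 before, SOCS3 with the 5 genes from -0.86 to 0.28 and IL6 with them from -0.71 to 0.15, and control replicate 3 had both the lowest median and most of the lowest control values. Over all 6 libraries SOCS3 had r = 0.94 with IL6, which holds the group difference that these genes were picked on. After removal of the group means it was 0.46, below IL11 at 0.74, LIF at 0.71, STAT3 at 0.57 and JAK1 at 0.48.

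Outside the 10 genes, the 5 whose log2(FPKM + 1) followed IL6 most closely over the 6 libraries were INSIG1, HERC5, C12orf4, SQLE and IMPA2, with Pearson's r of 0.98 to 0.99 among 8391 candidate genes. INSIG1 holds back cholesterol synthesis and SQLE is a squalene epoxidase of that route, HERC5 is an interferon-induced ligase and IMPA2 an inositol monophosphatase. After removal of the group means their r with IL6 was 0.82 to 0.99 in the same libraries that chose them. INSIG1 had 32.3, 34.8 and 26.7 FPKM in control and 19.6, 23.4 and 21.2 FPKM in TAX replicates, so that it shared with IL6 both the low control replicate 3 and the order TAX replicate 1, 3, 2 from low to high. C12orf4 matched in shape only, with a log2 fold change of -0.081. Among that many genes, 74 had r over 0.9 with IL6.

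**Figure D4:**
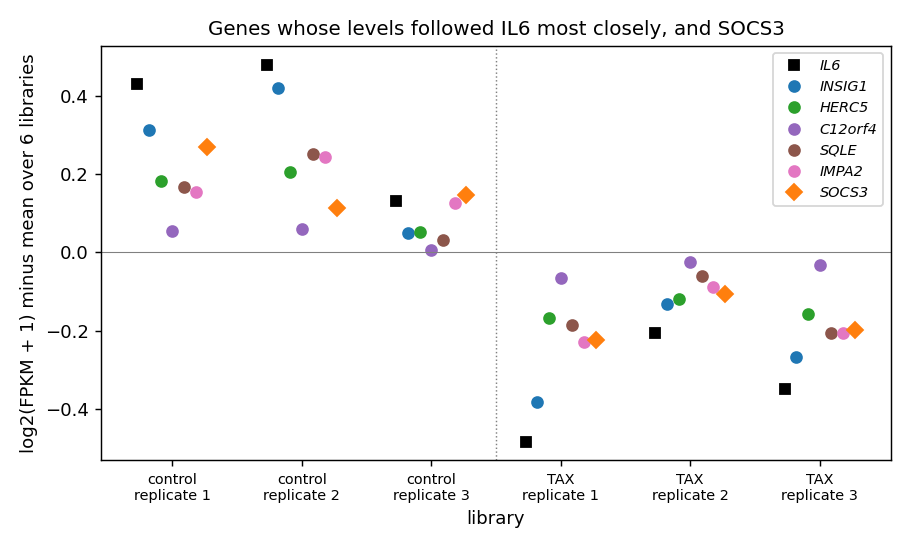
Log2(FPKM + 1) of IL6, the 5 genes most like it and SOCS3 in each library, minus the mean of the gene over the 6 libraries, with 1 colour per gene. All 7 genes lie above 0 in the 3 control libraries and below 0 in the 3 TAX libraries, with IL6 spread widest and C12orf4 nearest to 0.

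The rest of the pathway was followed in 6 lists of 84 genes, of which 62 had enough FPKM to be tested. Over these lists 1 gene, SAA1, which entered the test only through its high control libraries, passed an adjusted p under 0.05 and 17 had an unadjusted p under 0.05, of which 10 were higher and 7 lower. Of all tested genes 10.1% had such a p, 7.73% higher and 2.41% lower. The lists were chosen with earlier results of these data known, so nothing is read from these counts. Of the 8 other ligands of the family, CLCF1 and CNTF were tested and 0 passed. CLCF1, which binds the CNTF receptor, was at 13.7 ± 1.34 FPKM in control cells and at 13.0 ± 1.03 FPKM after TAX (SD, n = 3 each). The span of CLCF1 shares 9417 bases with AP003419.1 (at most 2.55 FPKM) on the same strand. It shares 10010 bases with RAD9A (at most 3.51 FPKM) on the opposite strand. CNTF, the ciliary neurotrophic factor, had 3.14 ± 0.371 and 4.28 ± 0.524 FPKM (SD, n = 3 each, limma adjusted p = 0.257), and the read-through gene ZFP91-CNTF shares 1967 bases with it on the same strand. OSM, which lies beside LIF and whose product binds OSMR, reached at most 0.179 FPKM, so the most abundant receptor chain had almost no RNA of its ligand in these cells. IL27 and IL31 were listed at 0 in all libraries.

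Of 5 tested receptors and sheddases 0 passed. After quantile normalization or median centring 3 had an unadjusted p under 0.05, and 2 after rescaling to one sum. Of all 12359 tested genes, 1460, 1497 and 1552 had such a p in these settings. In the main fit 1 gene of the list had such a p. That was IL31RA, which pairs with OSMR to bind interleukin 31, with 4.72 ± 0.440 FPKM in control against 6.24 ± 0.646 FPKM in TAX cells (SD, n = 3 each, limma adjusted p = 0.237). IL11RA, the private chain for IL11, had 9.72 ± 1.08 and 10.6 ± 0.540 FPKM and IL27RA had 28.5 ± 2.42 and 26.0 ± 0.656 FPKM (SD, n = 3 each), and both overlapped between the groups. Of 8 other JAK kinases and STAT factors 0 passed and 1 had an unadjusted p under 0.05 in the main fit. That gene, STAT5B, had 10.4 ± 1.06 FPKM in control against 12.4 ± 0.613 FPKM in TAX cells (SD, n = 3 each, limma adjusted p = 0.421). After quantile normalization or median centring 3 genes of this list had an unadjusted p under 0.05, and 0 without TAX replicate 1 or 3. STAT2 and STAT4 had log2 fold changes of -0.12 each. Among 13 tested SOCS, PIAS and phosphatase genes 0 passed by limma and 0 had an unadjusted p under 0.05. PTPN11, the phosphatase SHP2 that docks on gp130, had 59.4 ± 1.76 and 64.8 ± 1.61 FPKM (SD, n = 3 each, limma adjusted p = 0.602). On the opposite strand the span of RPL6 (at most 649 FPKM) shares 488 bases with that of PTPN11. SOCS2 had 11.9 ± 0.255 and 11.1 ± 0.641 FPKM and SOCS7 had 12.3 ± 1.06 and 13.4 ± 1.41 FPKM (SD, n = 3 each). With no filter on low values 2 of the 15 listed genes had an unadjusted p under 0.05 and 0 passed. In that setting 1854 of all 20280 genes had such a p.

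Of 19 tested STAT3 target genes, 1 was called lower, SAA1, and 0 higher, beside 0.162% and 0.316% of all genes. At an unadjusted p under 0.05 the list had 6 genes lower, SAA1 among them, and 3 higher, beside 2.41% and 7.73% of all genes. This list was chosen with earlier results of these data known, so nothing is read from its counts. Its median log2 fold change was 0.033, which ranged from -0.12 to 0.10 in the alternatives. SAA1, an acute-phase protein, had control values of 2.64, 1.74 and 1.91 FPKM and TAX values of 0.491, 0.451 and 0.319 FPKM. The log2 fold change of SAA1 on the log2(FPKM + 1) scale was -1.11 (standard error 0.11). SAA1 entered the test through its control libraries alone, which a gene with this pattern must, and without any 1 control library it was under the filter. Its values are therefore a description, and with no filter on low values SAA1 was not called (limma adjusted p = 0.0923). Its log2 fold change was -2.07 with a pseudocount of 0.1 and -1.68 after rescaling to one sum. LCN2, a siderophore-binding acute-phase protein, had 26.6 ± 5.05 FPKM in control against 15.9 ± 1.57 FPKM in TAX cells (SD, n = 3 each) without overlap, with an adjusted p of 0.0591 from limma that lay between 0.0212 and 0.283 in the alternatives. CCND1, the gene of cyclin D1, had 34.9 ± 0.933 and 45.7 ± 1.24 FPKM (SD, n = 3 each) without overlap (limma adjusted p = 0.0731, between 0.0475 and 0.278 in the alternatives). The other 6 genes at an unadjusted p under 0.05 were not all of one kind. CEBPD, MUC1, JUNB and FOS had lower estimates, with log2 fold changes of -0.53, -0.71, -0.33 and -1.01, and MCL1 and BIRC5, which hold back cell death, had higher ones of 0.25 and 0.19. FOS overlapped between the groups, with 13.7 FPKM in control replicate 2 beside 3.80 and 2.61 FPKM in the other controls. MUC1 shares its locus and strand with AL713999.1. HOOK2 (at most 10.9 FPKM), on the opposite strand, shares 1820 bases with the JUNB locus. By an unadjusted p under 0.05 with a 1.5-fold difference, which 0.437% of all genes reached, 4 targets were called, SAA1, LCN2, MUC1 and FOS, all with lower values.

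Among 15 genes that act on IL6 transcription or on decay of its mRNA, 0 passed by limma and 5 had an unadjusted p under 0.05. FOSL1, a subunit of AP-1, had 45.0 ± 7.81 FPKM in control against 60.1 ± 6.27 FPKM in TAX cells (SD, n = 3 each, limma adjusted p = 0.270). RELB had 10.5 ± 1.34 and 13.0 ± 0.493 FPKM and NFKB2 44.3 ± 6.42 and 55.6 ± 3.87 FPKM (SD, n = 3 each), both subunits of the noncanonical arm of NF-kB, with adjusted p of 0.338 and 0.350 from limma. These estimates were opposite in sign to that of IL6, and a link of these genes to the level of IL6 was not tested. In the main fit the log2 fold changes of FOSL1, RELB and NFKB2 were 0.42, 0.30 and 0.33. Without control replicate 3 they were 0.29, 0.20 and 0.22. Of the 15 genes of the list, 8 had higher and 7 had lower estimates in TAX cells. NFKB1 had a log2 fold change of 0.25, and ZFP36, which speeds the decay of AU-rich mRNAs, had -0.32. ZC3H12A and RC3H1, whose products cleave or mark IL6 mRNA, had -0.0093 and 0.13. The median of the list was 0.067.

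**Figure D5:**
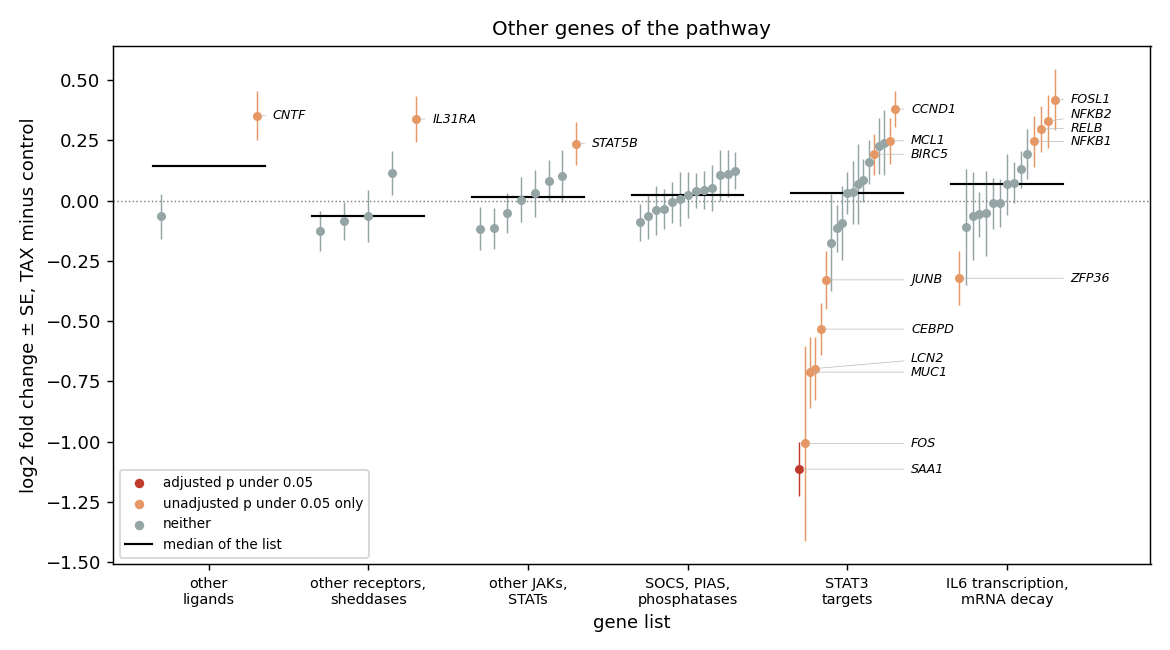
Log2 fold change with standard error, TAX minus control, of the 62 tested genes in 6 lists, with a black line at the median of each list and names for genes at an unadjusted p under 0.05. SAA1 at -1.11, tested only because of its control values, alone passed the adjusted test, and the STAT3 targets reach from there to 0.38 for CCND1.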

How the data were processed

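RNA-seq libraries of DU145 cells, 3 control and 3 TAX, were analysed from 1 table per library. The authors deposited 1 decimal value per gene, taken here as FPKM because sums differ between libraries and 3130 identifiers of each carry StringTie's MSTRG prefix. The submitters' processing notes name HISAT2 2.2.0, StringTie 2.1.2 and GRCh38. Annotation, filters and strand are not given in the sources used here. No unit of a single read could be read off the lowest values, so depth is unknown and no counting interval can be given.

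Log2(FPKM + 1) was fitted with limma 3.58.1 (R 4.3.3, mean-variance trend, no covariate) for the 12359 genes that reached 1 FPKM in 3 or more libraries, with Benjamini-Hochberg adjustment over all of them. The fit was tested on simulated data. The study names p under 0.05 and a fold change but no tool for this assay. Fold changes of low genes are understated on this scale.

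The 10 genes, the lists, the motifs and the alternatives were chosen with earlier results of these data known. Named were the 10 genes, in each list every gene with an adjusted p under 0.05 and the 3 with the smallest p, and the 5 genes (mean of at least 5 FPKM) with the highest Pearson's r with IL6. CEBPD, MUC1, JUNB, FOS, MCL1, BIRC5, NFKB1, ZFP36, ZC3H12A, RC3H1, OSM, IL27, IL31, CISH, SAA2, HP, CRP, LBP and FGG were named after their values were seen. Positions and overlaps came from GENCODE 29, promoters from RefSeq. Overlaps of list genes are of whole gene spans and are not printed for every gene named. Alternatives were another pseudocount (0.1), a filter at 0.5 FPKM or none, quantile normalization, median centring, no trend, a replicate block, an unadjusted p under 0.05 with 1.5-fold, leaving out each library and, added after seeing the data, rescaling each library to the same sum.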

Additional observations from a re-analysis of the deposited data

How the results depend on the processing

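The number of genes called in the whole comparison, 59, was 95 after quantile normalization, 96 after median centring, 26 with a replicate block and 1 with no filter on low values, where 1854 had an unadjusted p under 0.05, and it ranged from 18 to 43 when 1 library was left out. Of the 10 genes, 1 was called, 0 with no filter and 0 to 1 with a library left out. Of the STAT3 targets, 1 was called, 4 after quantile normalization, median centring or rescaling to one sum, 4 by unadjusted p and 1.5-fold, 2 with the replicate block, 0 with no filter and 0 to 2 with a library left out. All of these calls of STAT3 targets were lower in TAX cells except that of CCND1 after rescaling to one sum. The cause of the shifts in these numbers was not tested. The other 5 lists had 0 calls in all 15 alternatives. CLCF1 changed sign, its log2 fold change ranging from -0.13 to 0.0081 when 1 library was left out. Same-numbered libraries did not deviate together, with correlations of -0.12, -0.33 and -0.17, so the replicate block rests on a shared number only. Without each control library in turn, 7 pairs of neighbours in the order of control levels again had separate ranges.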

Other observations

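Of the 22 list genes below the filter on low values, 3 had TAX libraries that all lay below all control libraries. None of the 3 was tested at the filter of 1 FPKM. The share of 3.34% of genes with lower TAX values without overlap covers tested genes only, so nothing is read from this count. SAA2, a near copy of SAA1 in an acute-phase gene cluster, had 0.574, 0.837 and 0.873 FPKM in control and 0.313, 0.273 and 0.132 FPKM in the TAX libraries (replicates 1, 2 and 3), and reads of such copies can be split between them in ways the tables do not show. CISH, a SOCS family member best known as a target of STAT5, had 0.496, 0.423 and 0.537 FPKM in control and 0.317, 0.318 and 0.313 FPKM in the TAX libraries. HP, the gene of the acute-phase protein haptoglobin, had 0.0610, 0.185 and 0.0154 FPKM in control libraries and was listed at 0 in all 3 TAX libraries. On the opposite strand, TXNL4B (at most 8.81 FPKM) shares 6464 bases with the HP locus. MAPKAPK3 (at most 32.6 FPKM) likewise shares 312 bases with the CISH locus. These shared bases are of whole gene spans with introns, and shared exons were not counted for these genes. The use of strand in counting is not given, so reads from any shared exons cannot be told apart. The liver acute-phase genes CRP, LBP and FGG were listed at 0 in all 6 libraries.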
